A study of Mus musculus with 16 samples.

Results

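The COMMD family comprises 10 mouse genes, Commd1 to Commd10, and all 10 were found by name among the 28618 rows of the deposited expression table, with 1 row each. Commd9 was singled out because its difference between genotypes was not the same at the 2 stages of the study, so its values are described here without a test, and the other 9 members were tested. RNA was sequenced from germinal vesicle (GV) oocytes, held in meiotic prophase with a visible nucleus, and from ovulated eggs labelled metaphase II (MII). Both came from C57BL/6 females aged 3 to 4 weeks that were either wild-type (WT) or Psma7 cKO, with 4 libraries in each of the 4 groups. In Psma7 cKO females both Psma7 alleles are floxed and Cre is driven by the Zp3 promoter, which is active in growing oocytes, whereas follicle cells keep the gene. Psma7 encodes an α subunit of the 20S proteasome. All females received 5 IU of PMSG, GV oocytes were collected 44 h later, and eggs were collected 14 to 16 h after hCG and freed of cumulus cells with 0.3% hyaluronidase. The labels give 5 oocytes per sample, and the study's methods give a larger pool. The Cre status of the WT females is not stated in the sources used here. The paper reports that part of the ovulated Psma7 cKO oocytes had not reached metaphase II. Whether such cells were among the sequenced eggs was not tested, so genotype and stage cannot be told apart in eggs.

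COMMD proteins share a carboxy-terminal COMM domain through which they bind each other. Together they form a ring that joins CCDC22 and CCDC93 in the CCC complex, and this complex assembles with the retriever trimer (VPS35L, VPS26C and VPS29) and DENND10 into the Commander complex. Commander returns membrane proteins from endosomes to the cell surface, with SNX17 choosing many of the cargoes and the WASH complex building actin on the endosome. COMMD1 is also known for its part in copper homeostasis and for limiting NF-κB. A GV oocyte stores messenger RNA and makes almost no new transcripts, and much of that store is degraded or loses its poly(A) tail as the oocyte matures. The libraries were primed with oligo-dT, so a transcript with a short tail and a transcript that was degraded cannot be told apart.

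The 10 genes lie on 8 chromosomes of the GRCm38 (mm10) assembly, and Commd3, Commd7 and Commd9 share chromosome 2 with Psma7. Commd9 (GENCODE release M21) occupies chr2:101886247-101901646 on the plus strand, 78.1 Mb from Psma7 at chr2:180036374-180042433 on the minus strand. Its principal coding transcript has 6 exons, 1191 nt and 198 codons. The ends of 3 members' 3′ UTRs are shown because signals near the transcript end set polyadenylation of stored messages. Capitals mark the polyadenylation signals AATAAA and ATTAAA and the cytoplasmic polyadenylation element TTTTAT, which the RNA-binding protein CPEB1 recognises, all written as DNA in the sense direction. Commd9 and Commd4 kept the smallest shares of their GV level in WT eggs, and Commd3 kept nearly all of it.
Commd9: gaaagggttggaAATAAAtaacggtgatgg
Commd4: ccatTTTTATaggcaagaagAATAAAcaag
Commd3: ctATTAAAgtatcgtaccctgAATAAAtac
These windows are chr2:101901605-101901634 on the plus strand, chr9:57155049-57155078 on the minus strand and chr2:18676175-18676204 on the plus strand. The AATAAA of Commd9 starts 30 bases before the annotated transcript end, and that of Commd4 starts 20 bases before it. In the last 100 bases of 1 annotated transcript per gene, read on the sense strand and with overlapping matches counted, AATAAA was found in 5 of the 10 members and in 66.1% of 18407 transcripts. AATAAA or ATTAAA was found in 7 of the 10 and in 80.1% of all. TTTTAT was found in Commd4 and Commd10 and in 13.8% of all transcripts, and the related TTTTAAT in 0 members and 5.03% of all. None of these motifs was found in this window of Commd1, Commd2 or Commd8. Which transcript ends oocytes use was not measured.

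The labels were checked against Psma7 and cell type markers. Psma7 lay at 142 to 200.6 FPKM in WT GV oocytes and 11.1 to 18.0 FPKM in Psma7 cKO GV oocytes. In eggs it lay at 97.7 to 172 FPKM in WT and at 13.6, 50.3, 35.0 and 59.9 FPKM in Psma7 cKO replicates 1 to 4. Its mean in Psma7 cKO was 14.6 FPKM in GV oocytes and 39.7 FPKM in eggs, against 165.0 and 126.0 FPKM in WT. The reason for the higher mean in Psma7 cKO eggs than in Psma7 cKO GV oocytes was not tested. FPKM counts fragments per kilobase of transcript and per unit of sequencing depth, so levels can be compared between genes, but each is a share of its library and not an amount per oocyte. A smaller share cannot be told apart from a growth of other transcripts. Estimated depth was 10.5 to 15.7 M fragments per library, and 0 pairs of libraries were identical. All 10 oocyte markers, such as Zp3 and Gdf9, were present, with summed levels of 8900 to 14620 FPKM. Of 15 cumulus and granulosa markers 3 reached a mean of 1 FPKM (Cyp19a1, Cyp11a1 and Kitl). Their list summed to 13.98 to 16.38 FPKM in WT GV oocytes, 16.9 to 20.69 FPKM in Psma7 cKO GV oocytes, 17.68 to 22.16 FPKM in WT eggs and 20.25 to 21.47 FPKM in Psma7 cKO eggs. Foxl2 and Tnfaip6 were each at 0 in 15 of the 16 libraries. Blood markers stayed at or below 1.001 FPKM in sum except in 1 WT egg library with 8.876 FPKM. The sums of the GV groups did not overlap, and the part of follicle cells in the results was not tested. Within groups, 1 library tended to lead the family: WT GV replicate 3 was the highest of its group for 8 of the 10 members, and Psma7 cKO egg replicate 3 for 7 of the 10.

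Commd9, a Commander subunit, was among the most abundant members in GV oocytes and was held at 64.1, 68.2, 64.9 and 65.7 FPKM in the 4 WT libraries. The 4 Psma7 cKO GV libraries had 74.3, 72.9, 69.2 and 65.0 FPKM, so the genotypes overlapped. In WT eggs it was down to 2.41, 3.14, 1.84 and 1.87 FPKM. In Psma7 cKO eggs it was at 11.0, 7.47, 23.6 and 13.2 FPKM. Every Psma7 cKO egg library therefore lay above every WT egg library and below every GV library. Group means were 65.7 ± 1.78 FPKM in WT GV oocytes, 70.3 ± 4.16 in Psma7 cKO GV oocytes, 2.32 ± 0.610 in WT eggs, and for Psma7 cKO eggs 13.8 ± 6.94 (SD, n = 4 each). The mean in eggs was 28.4-fold below that in GV oocytes in WT and 5.10-fold below it in Psma7 cKO, and the mean in Psma7 cKO eggs was 5.96-fold that in WT eggs. The WT egg values rest on about 29 to 55 fragments per library, against 114 to 378 in Psma7 cKO eggs.

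On the log2 scale with values below 1 FPKM set to 1, Commd9 differed between Psma7 cKO and WT by 0.10 (SE 0.08) in GV oocytes and by 2.48 (SE 0.33) in eggs. The difference between those differences was 2.39 (SE 0.35). These values chose the gene and carry no test. The Psma7 cKO eggs were spread far more widely than the other groups, and without Psma7 cKO egg replicate 3 the difference of differences was 2.09. Across 26 alternative fits it ranged from 1.97 to 2.64.

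**Figure D1:**
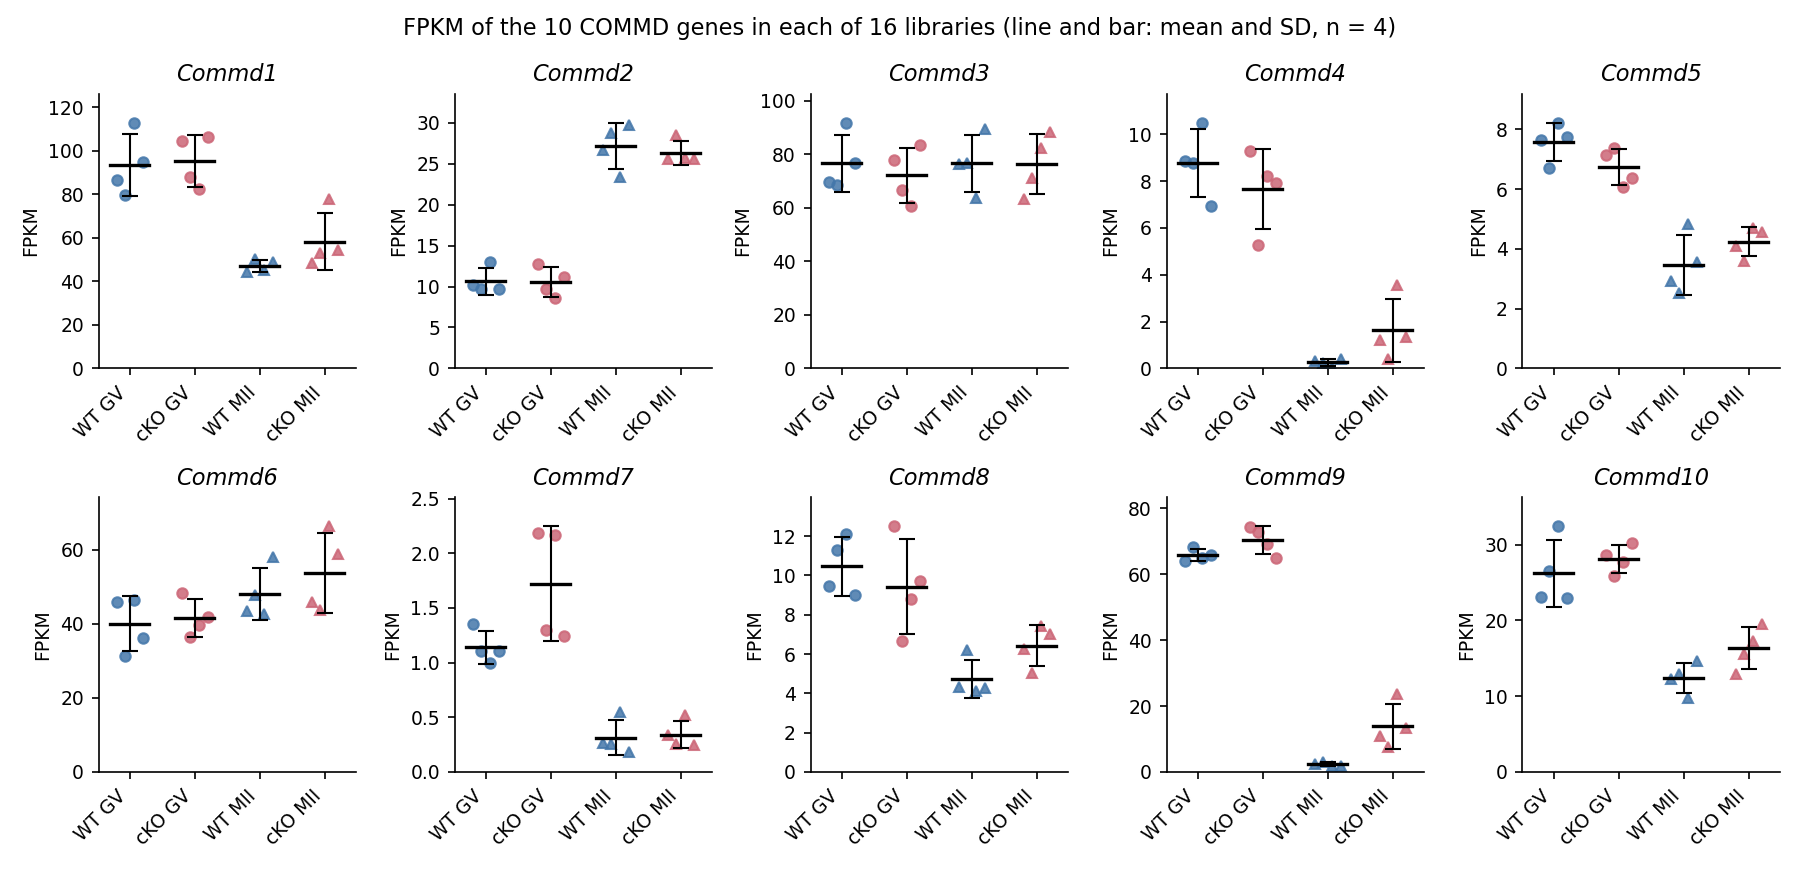
Expression of the 10 COMMD genes in FPKM (vertical axes, linear and starting at 0) in each of the 16 libraries, with GV oocytes as circles and eggs as triangles, WT in blue and Psma7 cKO in red, and lines and bars for the mean and SD of 4 libraries. Commd9 and Commd4 are the panels in which all Psma7 cKO eggs lie above all WT eggs, Commd2 is the panel in which eggs lie above GV oocytes, and the genotypes overlap in every other egg panel. The share of all rows with such a separation was not counted, and Commd9 was chosen for its genotype difference.

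The 10 genes summed to 340.6 ± 36.0 FPKM in WT GV oocytes, against 343.5 ± 31.6 FPKM without Psma7, and to 222.3 ± 23.4 FPKM in WT eggs, against 257.3 ± 41.7 FPKM without Psma7 (SD, n = 4 each). Commd9 made up 19.5% of this sum in WT GV oocytes, 20.6% in Psma7 cKO GV oocytes, 1.05% in WT eggs, with Psma7 cKO eggs at 5.19%. In WT GV oocytes the order of mean levels was Commd1, Commd3, Commd9, Commd6, Commd10, Commd2, Commd8, Commd4, Commd5 and Commd7. Only the steps from Commd3 to Commd9, Commd9 to Commd6, Commd10 to Commd2 and Commd5 to Commd7 separated genes whose libraries did not overlap. In Psma7 cKO GV oocytes the order was the same, with Commd9 overlapping Commd3. In WT eggs the order was Commd3, Commd6, Commd1, Commd2, Commd10, Commd8, Commd5, Commd9, Commd7 and Commd4. There Commd9 ranked 8, and its libraries overlapped those of Commd5 but not those of Commd7. In Psma7 cKO eggs it ranked 6, below Commd10, which it overlapped, and above Commd8, which it did not.

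Commd4 was the member whose pattern was nearest to that of Commd9, at a level several-fold lower. It lay at 8.88, 8.75, 10.5 and 6.94 FPKM in WT GV oocytes and at 9.27, 5.25, 8.23 and 7.90 FPKM in Psma7 cKO GV oocytes. In WT eggs it was at 0.336, 0.213, 0.0726 and 0.394 FPKM. In Psma7 cKO eggs it was at 1.20, 0.407, 3.55 and 1.34 FPKM. The genotypes overlapped in GV oocytes and did not overlap in eggs, where the lowest Psma7 cKO value and the highest WT value were close together. With the annotated transcript length its egg values correspond to 3.57, 2.68, 0.892 and 4.46 fragments in WT and 15.2, 4.46, 41.0 and 15.2 in Psma7 cKO. A length 1.121 times as large, fitted to bring these values closest to whole numbers, gives about 4, 3, 1 and 5 fragments in WT. The Psma7 cKO eggs then have 17, 5, 46 and 17 (largest distance from a whole number 0.0087, the quantity that was minimised). Counting error is large in WT eggs by either length. With the fitted length the lowest Psma7 cKO library and the highest WT library each hold 5 fragments. The mean level in eggs differed by 1.37 FPKM, with p = 0.0286 in a two-sided exact permutation test (n = 4 and 4), which is the smallest p that these libraries allow. Adjusted over the 2 members tested in this way, that exact permutation p became 0.0571, which misses the threshold of 0.05. The level remaining in eggs, relative to the mean of GV oocytes of the same genotype, was 2.90% ± 1.63 in WT and 21.2% ± 17.6 in Psma7 cKO (SD, n = 4 each), against 3.52% ± 0.927 and 19.6% ± 9.86 for Commd9.

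The other members did not share this separation in eggs. The share of all rows with such a separation was not counted, so it is given as a description of the members only. Commd2 was at 9.67 to 13.0 FPKM in WT and 8.57 to 12.7 FPKM in Psma7 cKO GV oocytes, and at 23.4 to 29.8 and 25.5 to 28.5 FPKM in eggs, which is higher in eggs than in GV oocytes in every library of both genotypes. Commd3 stayed between 60.8 and 91.7 FPKM in all 16 libraries. Commd6, which encodes the shortest protein of the family with 87 codons, lay between 31.3 and 66.2 FPKM throughout. These 3 members had at least their GV level in eggs on average, apart from Commd3 in WT at 99.9%.

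Commd1, Commd5, Commd8 and Commd10 kept means of 50.5%, 45.7%, 45.1% and 47.2% of the GV level in WT eggs and 61.1%, 62.9%, 68.3% and 58.1% in Psma7 cKO eggs. Commd1, the copper and NF-κB regulator, was at 44.5, 50.3, 45.2 and 48.8 FPKM in WT eggs and at 48.2, 53.0, 77.7 and 54.2 FPKM in Psma7 cKO eggs. The 77.7 FPKM belongs to replicate 3, and the ranges overlap. Commd8, which pairs with COMMD3 in receptor signalling in lymphocytes, was at 4.31, 6.19, 4.12 and 4.28 FPKM in WT eggs and 6.24, 5.02, 7.43 and 7.02 FPKM in Psma7 cKO eggs. Here 3 of the 4 Psma7 cKO values exceeded the highest WT value, and replicate 2 did not. Commd10 was at 12.2, 12.9, 9.75 and 14.6 FPKM in WT eggs and 12.9, 15.6, 17.3 and 19.5 FPKM in Psma7 cKO eggs, with overlap at the low end. Commd5 was at 2.54 to 4.83 FPKM in WT eggs and 3.61 to 4.69 FPKM in Psma7 cKO eggs. Commd7, the least abundant member in GV oocytes, was at 0.998 to 1.35 FPKM in WT and 1.25 to 2.19 FPKM in Psma7 cKO GV oocytes, and below 0.55 FPKM in every egg library.

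During maturation of WT oocytes, 5 of the 8 members that could be tested fell, 1 rose and 2 did not pass the threshold, an adjusted p of 0.05 in limma with Benjamini-Hochberg adjustment over 10475 rows. Of all rows, 52.4% fell and 26.1% rose, so the shares of the members were not far from the background. The 5 that fell were Commd4 (log2 fold change -3.12, SE 0.14), Commd5 (-1.17, SE 0.19), Commd8 (-1.16, SE 0.16), Commd10 (-1.08, SE 0.15) and Commd1 (-0.98, SE 0.11). Commd2 rose by 1.36 (SE 0.12), with a limma adjusted p of 1.95e-06 and a higher level in 4 of 4 eggs. Commd3 was at 0.00 (SE 0.12) and Commd6 at 0.27 (SE 0.15, limma adjusted p = 0.109). Commd7 was below the filter of a mean of 1 FPKM. The median was -1.03 for these members and -0.44 for all rows, and Commd9 itself was at -4.86 (SE 0.16). The floor of 1 FPKM limits the value of Commd4, whose WT egg values all lie below it.

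In Psma7 cKO oocytes 6 of the 9 members fell and 1 rose, against 51.0% and 23.0% of 10748 rows. Commd7 is counted here and not in WT. It passed the filter through its mean of 1.72 FPKM in Psma7 cKO GV oocytes, with 0.342 FPKM in eggs, so its fall is favoured by the filter. Commd4 was at -2.28 (SE 0.37), Commd10 at -0.80 (SE 0.13), Commd7 at -0.73 (SE 0.20), Commd1 at -0.73 (SE 0.16), Commd5 at -0.67 (SE 0.13) and Commd8 at -0.53 (SE 0.20), and Commd9 at -2.48 (SE 0.29). Commd2 again rose, by 1.34 (SE 0.13). Commd3 was at 0.08 (SE 0.14) and Commd6 at 0.36 (SE 0.15, limma adjusted p = 0.0562). The call of Commd8 (limma adjusted p = 0.0392) was lost without Psma7 cKO GV replicate 1, 3 or 4 or without egg replicate 1, 2 or 4, with adjusted p up to 0.102. Commd6 rose past the threshold without Psma7 cKO GV replicate 1 or egg replicate 1 or 2 (limma adjusted p = 0.0372, 0.0404 and 0.0274). Rescaling the libraries by the median ratio of expressed genes moved the median of all rows from -0.44 to -0.21 in WT and from -0.42 to -0.22 in Psma7 cKO. On that scale Commd6 rose in both genotypes, by 0.50 and 0.56, the WT value of Commd3 was 0.23, and Commd8 was at -0.33 in Psma7 cKO (limma adjusted p = 0.156).

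**Figure D2:**
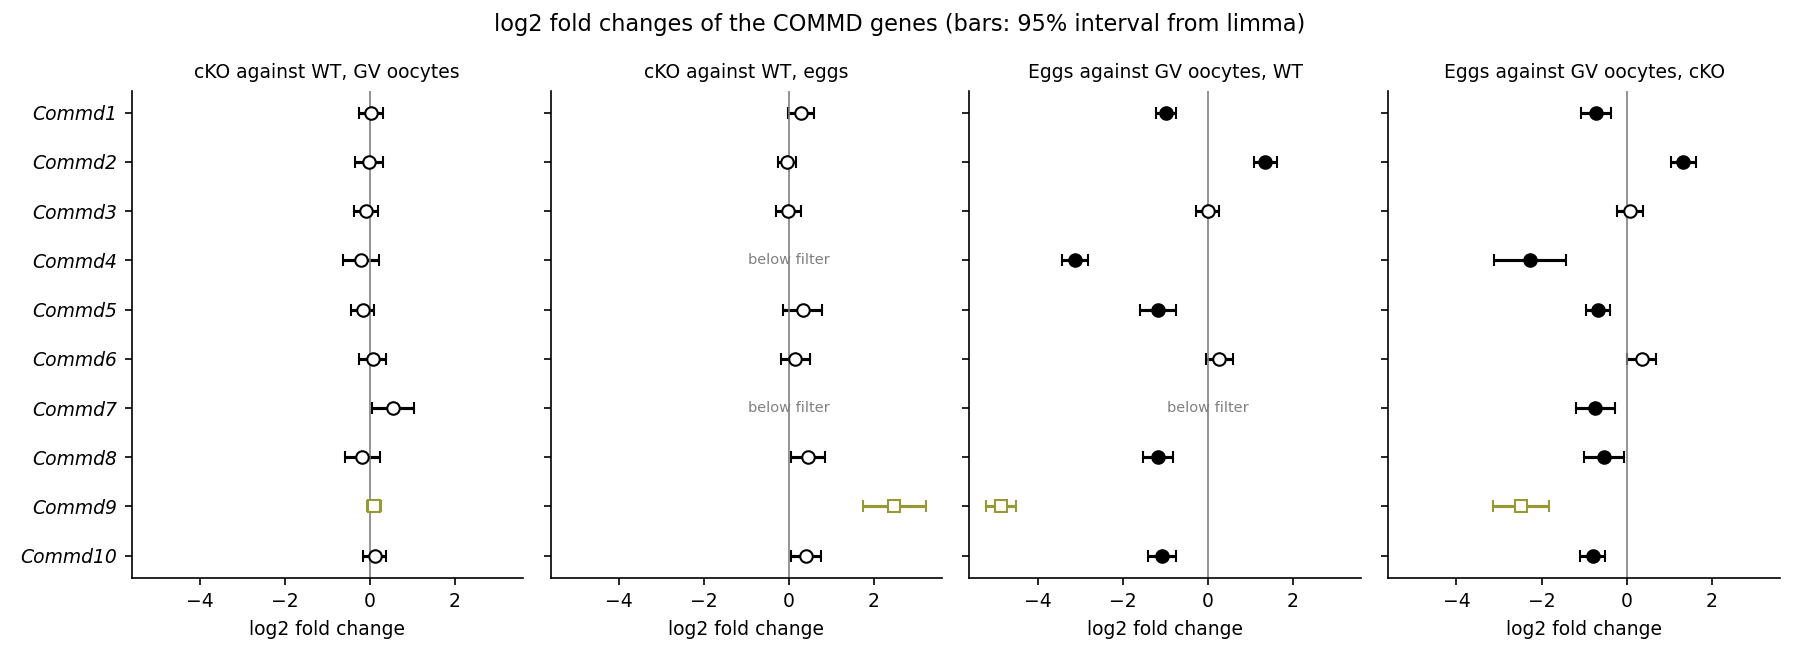
Log2 fold changes (horizontal axes) of the COMMD genes in 4 comparisons, with 95% intervals from limma on log2 FPKM with a floor of 1. Filled circles passed the adjusted threshold, open circles did not, and Commd9 is an open square because it was not tested. Commd9 lies at 2.48 in the panel of eggs, where the 7 tested members lie between -0.04 and 0.45.

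Between genotypes 0 of the 9 members passed the threshold in GV oocytes, where 0.0994% of 11062 rows were higher in Psma7 cKO and 0.0181% lower by the same limma test. At an unadjusted p under 0.05 there were 843 higher and 339 lower rows, and 1 member, Commd7 at 0.55 (SE 0.22, limma adjusted p = 0.403), was among the former. The other members lay between -0.21 and 0.11, with Commd4 lowest and Commd10 highest. The 95% intervals of Commd1 (-0.25 to 0.31) and Commd3 (-0.37 to 0.19) leave out a change of 1 log2 unit in either direction.

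In eggs 7 members other than Commd9 could be tested and 0 passed, where 6.53% of 9492 rows were higher in Psma7 cKO and 1.49% were lower. Commd8 differed by 0.45 (SE 0.17, limma adjusted p = 0.128), Commd10 by 0.40 (SE 0.16, limma adjusted p = 0.133), Commd5 by 0.33 (SE 0.20, limma adjusted p = 0.308) and Commd1 by 0.28 (SE 0.14, limma adjusted p = 0.204). Commd8 and Commd10 were the members at an unadjusted p under 0.05, as were 1952 rows higher and 835 lower among all. Commd6 was at 0.15, Commd3 at -0.01 and Commd2 at -0.04. Their 95% intervals were -0.19 to 0.49, -0.30 to 0.29 and -0.24 to 0.16, so a difference of the size seen in Commd9 lay far outside each. Commd4 and Commd7 were below the filter, and Commd7 differed by 0.0292 FPKM (two-sided exact permutation p = 0.743, n = 4 and 4). The number of rows called in eggs depended on single libraries, with 3 higher without WT egg replicate 3 and 1024 higher without Psma7 cKO egg replicate 2.

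The difference between the 2 stages in the genotype effect, tested in all 16 libraries, passed the threshold in 0 of 8 members, while 1.07% of 10615 rows were higher and 0.188% lower. Commd4 was at 0.84 (SE 0.42, limma adjusted p = 0.316), Commd8 at 0.63 (SE 0.27, limma adjusted p = 0.235) and Commd5 at 0.50 (SE 0.23, limma adjusted p = 0.283), and 7 of the 8 values were above 0, with a median of 0.27 against 0.03 for all rows. Of the 8, Commd8 alone was at an unadjusted p under 0.05, with 1347 rows higher and 534 lower. The value of Commd4 was 0.44 without Psma7 cKO egg replicate 3, and 2.63 with a floor of 0.1 FPKM (limma adjusted p = 0.0751).

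Commd9 was next set beside transcripts whose mean level fell more than 10-fold during WT maturation, called decaying here. Degradation and a shortened poly(A) tail cannot be told apart in them. The 396 other transcripts whose mean fell more than 10-fold from GV oocytes to eggs in WT, COMMD genes left out, kept 5.94%, 6.80%, 6.22% and 6.06% of their summed GV level in the 4 WT eggs. In Psma7 cKO eggs they kept 12.6%, 8.80%, 34.5% and 19.1% in replicates 1 to 4. For Commd9 the same percentages were 3.67, 4.78, 2.80 and 2.85 in WT, whereas the Psma7 cKO eggs had 15.6, 10.6, 33.5 and 18.8. The 4 Psma7 cKO libraries thus had the same order for Commd9 as for the other decaying transcripts, with replicate 3 highest and replicate 2 lowest. The level of Psma7 had another order in these eggs, with replicate 4 highest and replicate 1 lowest. What sets these orders of 4 libraries was not tested. Choosing the transcripts on the low WT egg values favours a higher level in Psma7 cKO eggs, and 391 of the 396 had one. The median ratio of Psma7 cKO to WT eggs was 2.50 (10% of them below 1.40 and 10% above 4.71), and 24 of the 396, or 6.06%, had a ratio at or above that of Commd9. Commd9 was chosen for its genotype difference, which favours a high place among them, so this place is a description and no test. With 118 transcripts chosen instead on the means of both genotypes, the summed level left was 3.75% to 4.09% in WT eggs and 7.12%, 5.21%, 20.6% and 10.3% in Psma7 cKO eggs, in the same order of libraries. The standing of Commd9 beside the transcripts depended on that choice. Its percentage in Psma7 cKO eggs was 0.973 to 1.23 times that of the 396 transcripts and 1.63 to 2.19 times that of the 118, and in WT eggs the mean of this ratio was 0.560 and 0.903. Commd9 itself was 8.44-fold lower in eggs by the means of both genotypes, so it would not enter the second set. The 118 transcripts were required to be low in eggs of both genotypes together. That rule favours a ratio above 1 for Commd9 in Psma7 cKO eggs, so the ratio is a description only.

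**Figure D3:**
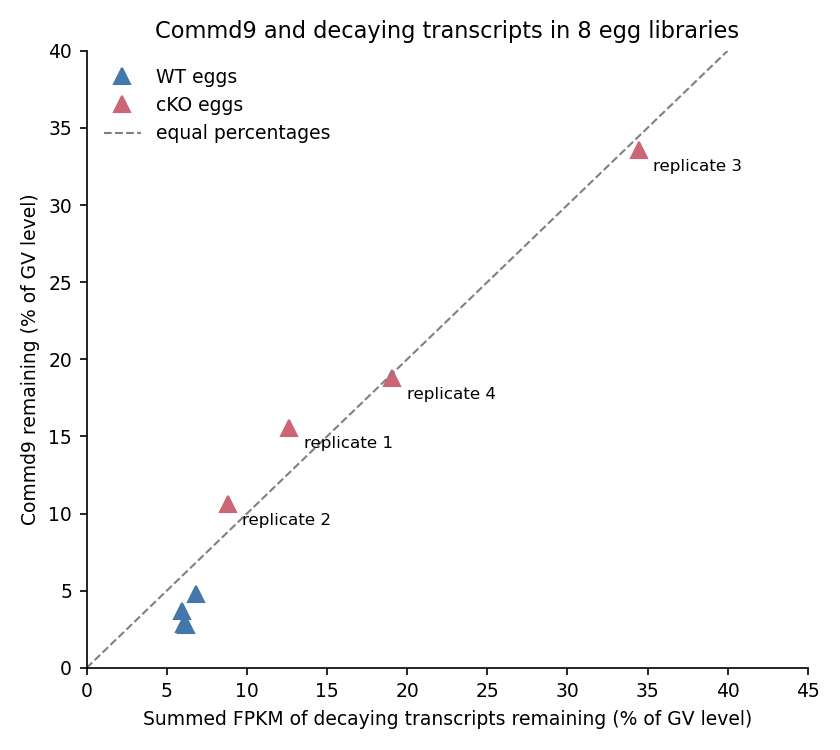
Percentage of the GV level remaining in each of the 8 egg libraries for Commd9 (vertical axis) and for the summed FPKM of 396 decaying transcripts chosen on WT libraries (horizontal axis), with WT eggs in blue, Psma7 cKO eggs in red and a dashed line at equal percentages. WT eggs lie below the line at 2.80% to 4.78% for Commd9, and Psma7 cKO eggs lie on either side of it, from 10.6% in replicate 2 to 33.5% in replicate 3.

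The remaining Commander subunits were taken from a list. Vps35l, the large subunit of retriever, fell from 82.3 ± 8.66 to 7.18 ± 0.480 FPKM in WT, and from 77.6 ± 5.35 to 10.9 ± 3.49 FPKM in Psma7 cKO oocytes (SD, n = 4 each). During WT maturation 4 of these 6 genes fell, namely Vps35l (log2 fold change -3.52), Vps29 (-1.90), Ccdc93 (-1.51) and Ccdc22 (-1.09), and 0 rose, against 52.4% of all rows that fell. Vps26c (0.26) and Dennd10 (-0.12) did not pass. Vps26c has 2 rows, and only the first of them was used here. In Psma7 cKO the same 4 fell, by 2.88, 1.44, 1.29 and 0.97, against 51.0% of all rows. These shares of a list of 6 are near the background. In eggs 0 of the 4 tested subunits passed the threshold between genotypes, where 6.53% of all rows were higher and 1.49% lower. Vps35l was at 0.55 (limma adjusted p = 0.106) and Vps29 at 0.41 (limma adjusted p = 0.467). In GV oocytes 0 of 6 passed, where 0.0994% of all rows were higher and 0.0181% lower. In the difference between stages 0 of 6 passed, where 1.07% were higher and 0.188% lower. Counts of 0 in a list of 6 are near these shares.

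Other endosomal genes were counted in the same way. Of 7 tested retromer and sorting nexin genes 6 fell and 1 (Snx2) rose in WT, and 4 fell and 1 rose in Psma7 cKO. Of 5 WASH genes 3 fell in each genotype, and the shares of all rows that fell were 52.4% and 51.0%. Snx17, the cargo adaptor of Commander, was at -3.80 in WT and -3.23 in Psma7 cKO maturation, past the threshold in both, and its difference in eggs was 0.76 (limma adjusted p = 0.137). Vps35, the core of retromer, which is a complex related to retriever, differed by -0.13 in GV oocytes and -0.12 in eggs (limma adjusted p = 0.697 and 0.487). Of the 20 Commander, retromer and WASH genes, 18 were tested in GV oocytes, 15 in eggs and 18 for the difference between stages, and 0 passed. The shares of all rows that were higher were 0.0994%, 6.53% and 1.07%, so a count of 0 in a list of this size is near the background. Without Psma7 cKO egg replicate 2, 2 of these genes were higher in Psma7 cKO than in WT eggs, and so were 1024 of 9516 rows. Of 4 cargo, 7 copper and 6 NF-κB genes, 2, 5 and 4 could be tested in eggs, and Ccs alone passed there, where 6.53% of all rows were higher. None of the 2, 6 and 3 tested in GV oocytes passed. Ccs encodes the copper chaperone of superoxide dismutase and passed the filter in eggs through its Psma7 cKO libraries. WT eggs had 0.691 ± 0.448 FPKM against 2.79 ± 1.44 FPKM in Psma7 cKO eggs (log2 fold change 1.24, SE 0.32, limma adjusted p = 0.0491). That call was lost without WT egg replicate 1, 2, 3 or 4 or Psma7 cKO egg replicate 1 or 3 (limma adjusted p = 0.0610 to 0.131), and also with no filter, with no filter and a floor of 0.1 FPKM, or without a trend (limma adjusted p = 0.193, 0.149 and 0.0578). Cox17, a copper chaperone of cytochrome oxidase named after its values were seen, was at 2.37, 3.92, 2.90 and 3.88 FPKM in WT eggs and at 9.22, 4.20, 30.7 and 12.1 FPKM in Psma7 cKO eggs. Its egg groups did not overlap, a separation that was not counted over all rows. Its log2 difference was 1.78 (SE 0.51, limma adjusted p = 0.0601), which misses the threshold. Its difference between stages was 1.98 (SE 0.59, limma adjusted p = 0.0953). Atp7b, the copper exporter that COMMD1 is known to bind, was at most 0.182 FPKM in any library.

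**Figure D4:**
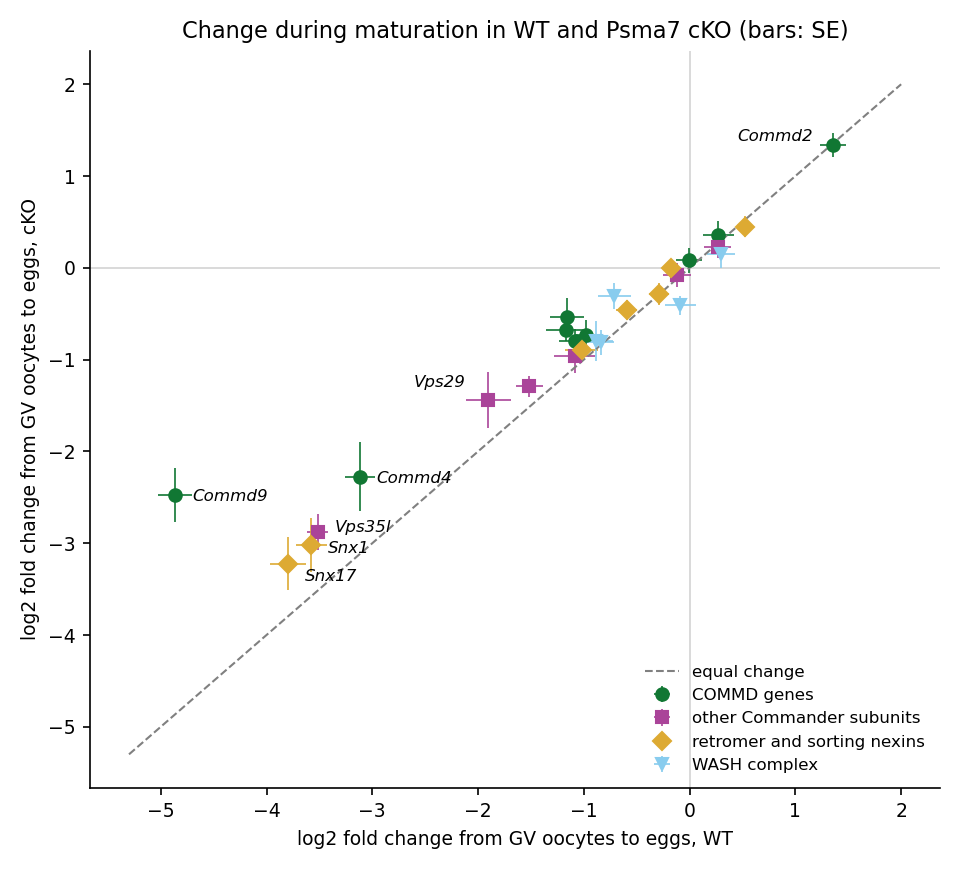
Log2 fold change from GV oocytes to eggs in WT (horizontal axis) and in Psma7 cKO (vertical axis) for COMMD genes and for other Commander, retromer, sorting nexin and WASH genes, with bars for the SE and a dashed line at equal change. With values below 1 FPKM set to 1, Commd9 (-4.86 and -2.48) lies farthest above the line, followed by Commd4 (-3.12 and -2.28). Commd2 (1.36 and 1.34) lies on it at the upper right. All WT egg values of Commd4 lie below 1 FPKM, so this floor limits its distance from the line.

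Neighbouring genes were checked because reads could be shared. Bmi1 starts 786 bp downstream of Commd3 on the same strand and had means of 61.3 and 50.8 FPKM in WT and Psma7 cKO GV oocytes and 144.5 and 112.8 FPKM in eggs, so it did not move as Commd3 did. Zrsr1 lies within Commd1 on the opposite strand and averaged at most 0.108 FPKM in any group. Annotated genes overlap exons of Commd1 by 294 bp and of Commd5 by 932 bp and have no row of their own in the table, so the values of these 2 members are uncertain to that extent. No gene of the annotation lies within 1 kb of Commd9.

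The 5 transcripts whose log2 floored FPKM followed Commd9 most closely over the 16 libraries were Hint1, Glo1, Ninj2, Srrd and BC031181, with Pearson's r of 0.9938 to 0.9913 among 10614 rows. The libraries form 2 separate clusters by stage, so r mostly reflects the fall during maturation and is given as a description. Hint1 had means of 30.1 FPKM in WT GV oocytes, 28.0 in Psma7 cKO GV oocytes, 1.16 in WT eggs, with Psma7 cKO eggs at 6.19. Ninj2 had 360.0, 350.4, 34.7 and 122.5 FPKM in the same order. Within the family Commd4 was nearest at 0.9407, which is rank 1139, and Commd2 was the most opposed at -0.8768.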

How the data were processed

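Polyadenylated RNA of 16 libraries (4 groups of 4) was amplified from pooled oocytes by a Smart-seq2 protocol. The deposited values are FPKM made by the authors. The submitters' processing notes name TopHat2 2.1.1, Cufflinks 2.2.1 and mm10, and the gene annotation is not given in the sources used here. ERCC spike-in was added, but the table holds no spike-in row and values are shares of a library. Labels do not say whether libraries came from separate animals, so p-values measure the spread between these samples. Values below 1 FPKM were set to 1, as in the study, and rows averaging 1 FPKM or more across the libraries of a fit were analysed on the log2 scale in limma 3.58.1 (R 4.3.3; lmFit, eBayes with trend), with each contrast of 2 groups on its 8 libraries, the difference between stages on all 16, and Benjamini-Hochberg adjustment over all rows at 0.05. Fold changes of genes near 1 FPKM are understated. A gene that averages below 1 FPKM in 1 group can pass the filter through the other group. Members below the filter in eggs were compared by two-sided exact permutation tests in Python 3.11.15 (scipy 1.17.1). Depth was estimated from the steps of low values of 5816 single-transcript genes. Fits were tested on simulated data. Positions and 3′ ends came from GENCODE M21, 1 transcript per gene. Named genes are all members, the non-COMMD Commander subunits, list genes past a genotype threshold with Snx17, Vps35 and Atp7b, neighbours within 1 kb, Psma7 and the 5 transcripts most correlated with Commd9. Snx2 and Cox17 were named after their values were seen. Vps35l, Vps26c and Dennd10 are listed under older symbols. The members and lists were chosen with earlier results of these data known. Alternatives were a floor of 0.1 FPKM, log2(FPKM + 1), no filter, a mean of at least 5 FPKM, median-ratio rescaling, no trend, a replicate block, 1 fit of all libraries, summed rows and each library left out. A floor of 0.1 FPKM without a filter and a second set of decaying transcripts were added after seeing the data.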

Additional observations from a re-analysis of the deposited data

Results flagged for a closer look

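Commd9 differed between the stages in its genotype effect by 2.39 on the log2 scale, the value for which it was chosen. It was about equal in GV oocytes of both genotypes and higher in all 4 Psma7 cKO eggs than in all 4 WT eggs. In 3 of 40 groups of 4 libraries, 1 library lay far from the others, where chance gives about 2. Commd2 was at 13.0 FPKM in WT GV replicate 3, with the other 3 libraries between 9.67 and 10.1 FPKM. Commd2 was at 28.5 FPKM in Psma7 cKO egg replicate 2, with the others between 25.5 and 25.7 FPKM. Commd8 was at 6.19 FPKM in WT egg replicate 2, with the others between 4.12 and 4.31 FPKM.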

How the results depend on the processing

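The 0 COMMD members called in GV oocytes, in eggs and in the difference between stages remained 0 under every alternative run. Rescaling by the median ratio raised the COMMD genes that rose from 1 to 2 in each genotype, and a fit of all 16 libraries did so in Psma7 cKO. The Commander, retromer and WASH genes that rose in WT numbered 3 with the rescaling and 2 without a trend against 1, and in Psma7 cKO 2 rose and 7 fell with the rescaling against 1 and 11. With each library left out in turn, COMMD genes that rose in Psma7 cKO numbered 1 to 2, and Commander, retromer and WASH genes that rose in WT 1 to 2. Of the latter genes, 0 to 2 were higher in Psma7 cKO than in WT eggs, and 0 to 1 were higher in the difference between stages. Without Psma7 cKO egg replicate 2, 1024 of 9516 rows were higher in Psma7 cKO eggs. The signs of small differences turned. With the rescaling Commd1 was at -0.00526 in GV oocytes and Commd3 at 0.227 in WT maturation. With single libraries left out, the genotype difference in GV oocytes ranged from -0.0401 to 0.128 for Commd1, -0.113 to 0.0847 for Commd2, -0.162 to 0.00055 for Commd3 and -0.0443 to 0.146 for Commd6. In eggs it ranged from -0.110 to 0.00546 for Commd2 and -0.0929 to 0.0781 for Commd3. The change in WT maturation ranged from -0.0810 to 0.0875 for Commd3, and the difference between stages from -0.125 to 0.0724 for Commd2, -0.00722 to 0.167 for Commd3 and -0.0239 to 0.195 for Commd6. The causes were not tested.

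Over all rows, calls in eggs were 620 higher and 141 lower, and 537 and 223 with the rescaling, 14 and 3 without a filter, 101 and 7 with the replicate block, and 1328 and 254 in a fit of all libraries. In GV oocytes 11 were higher and 2 lower, and 124 and 33 in a fit of all libraries. In the difference between stages 114 were higher and 20 lower, and 53 and 7 with the replicate block and 605 and 46 without Psma7 cKO egg replicate 2. Rescaling changed the calls of WT maturation from 2738 higher and 5486 lower to 3481 and 4789, and those of Psma7 cKO from 2472 and 5482 to 3127 and 4735. The labels do not say whether replicate numbers pair the libraries, and the main fits treat them as unpaired. Same-numbered libraries deviated from their group means with correlations of -0.4965 to 0.2854, and 2 of 16 pairs were over 0.1. Such correlations cannot decide whether libraries were collected together. The replicate block changed 0 calls of COMMD members, and Ccs missed the threshold with it (limma adjusted p = 0.0818), as it did without a filter (0.193), with a floor of 0.1 FPKM and no filter (0.149) and without a trend (0.0578). Commd4 and Commd7 rest on few fragments in eggs, so small differences were not detectable at this depth.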
